A study of Mus musculus with 30 samples.

Results

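Most of the genes described here encode proteins of the cytosolic ribosome. Members were taken by symbol: Rplp0 to Rplp2, Rpsa, and Rpl or Rps followed by a number, without the Rps6k kinases, Rps19bp1 and pseudogenes named with -ps. They made up 88 of the 20849 genes that could be named, 53 of the large subunit and 35 of the small one, counted by symbol. Poly-A selected RNA was sequenced from mammary tumours of 30 mice, 1 tumour per animal, and all 30 libraries form a single group. Every tumour was induced by PyMT, the polyoma middle T oncogene, in an animal of the cross ((MOLF x PyMT) x FVB), in which the wild-derived MOLF strain was crossed with PyMT mice and the offspring with FVB. Chromosome segments of MOLF and FVB origin therefore differ from animal to animal. No treatment, age, tumour stage, tumour cell share or individual genotype was used here, and there was no tumour-free tissue, so the comparisons run across tumours. Values are RPKM, reads scaled to the length of the transcript and to the depth of the library.

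A ribosome joins a large subunit, which forms peptide bonds, to a small subunit, which reads the mRNA. Cells make ribosomal proteins in matched amounts, assemble them on ribosomal RNA in the nucleolus with the help of biogenesis factors, and degrade unassembled copies. The mRNAs of these proteins typically begin with a tract of pyrimidines, the 5′ terminal oligopyrimidine (TOP) motif, through which mTOR and Larp1 set their translation with growth. Myc raises transcription of many genes of ribosome production, and growing epithelial tumours carry large amounts of these mRNAs.

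The start sites of members that varied most closely together and of members that varied apart are shown first, so that they can be read for the pyrimidine tract these mRNAs are known for. RefSeq start-site sequences (GRCm38.p6) were held for 67 of the 88 members. Each sequence below runs 5′ to 3′ from 30 bases before the annotated start to 20 bases after it, on the coding strand. Capitals mark a single pyrimidine run per sequence, at least 6 letters of C and T that begin with C. A sequence without capitals had none. The first 5 are those, among members with an entry, whose levels correlated best with the other members over the 30 tumours.
Rpl12, chr2:32961682-32961731, + strand: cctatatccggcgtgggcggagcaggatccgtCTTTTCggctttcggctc
Rpl6, chr5:121204471-121204520, + strand: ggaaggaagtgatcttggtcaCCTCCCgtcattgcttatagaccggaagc
Rpl39, chrX:37085203-37085252, - strand: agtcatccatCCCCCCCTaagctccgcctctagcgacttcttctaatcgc
Rpl27, chr11:101442215-101442264, + strand: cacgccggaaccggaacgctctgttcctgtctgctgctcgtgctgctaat
Rps9, chr7:3704011-3704060, + strand: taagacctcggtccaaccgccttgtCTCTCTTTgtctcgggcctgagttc
The next 5 are those with an entry that correlated least.
Rpl3l, chr17:24727796-24727845, + strand: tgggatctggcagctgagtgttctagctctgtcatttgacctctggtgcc
Rpl32l, chr10:20208409-20208458, + strand: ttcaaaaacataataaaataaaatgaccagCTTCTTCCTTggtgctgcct
Rps26, chr10:128626487-128626536, - strand: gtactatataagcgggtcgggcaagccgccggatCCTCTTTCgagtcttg
Rps2, chr17:24720033-24720082, + strand: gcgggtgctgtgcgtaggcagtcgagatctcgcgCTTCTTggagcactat
Rps3a1, chr3:86142649-86142698, - strand: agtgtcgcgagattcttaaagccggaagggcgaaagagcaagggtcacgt
A run was found in 4 of the first 5 sequences and in 3 of the next 5. The marked runs of Rpl6 and Rpl39 end before the annotated start and so lie outside the mRNA as annotated. Rpl39 also holds an unmarked run, cttcttct, which lies after the annotated start. The last pair belongs to Rps27 and its retrocopy Rps27rt, whose values in the table cannot be told apart.
Rps27, chr3:90213629-90213678, - strand: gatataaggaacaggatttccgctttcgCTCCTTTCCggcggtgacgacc
Rps27rt, chr9:114982720-114982769, - strand: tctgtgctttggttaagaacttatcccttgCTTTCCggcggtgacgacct

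A pyrimidine run of this kind lay within 30 bases of the start in 49 of the 67 members (73.1%) and in 44.1% of 27025 genes with an entry. The shorter word CTTTCC, searched on the coding strand in the same window and able to form part of such a run, was held by 14 members (20.9%) against 3.43% of all genes. CCGGAAG, a word of the kind that ETS factors bind, lay on either strand of the 300-base promoter in 26 members (38.8%) against 9.93% of genes. GGGCGG, the core letters of an Sp1 site, was found on either strand in 40 members (59.7%) against 38.2%. AAGATGG, which resembles the YY1 word and can cover a start codon, was found on either strand in 10 members (14.9%) against 7.28%. CACGTG, the E-box that Myc can bind, reads the same on both strands and was held by 6 members (8.96%) against 8.09% of all genes. TATAAA on the coding strand within the 60 bases before the start was found in 1 member, Rpl22l1 (1.49% against 3.44%). These matches describe letters in annotated promoters and say nothing of which factors bind in the tumours.

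Of the 88 members, 85 reached a mean of 1 RPKM and were tested, and 80 averaged 100 RPKM or more. Among the 100 genes with the highest means in the table, 54 were members. Together the 88 genes held 13.5% ± 1.99 (SD, n = 30) of the summed RPKM. The lowest share was 9.61% in animal 4378 and the highest 19.1% in animal 4150, with a median of 13.5%. Animal 4042 followed 4150 at 16.8%. The plot of levels shows most members within a narrow band and a short tail of members with derived symbols below it.

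**Figure D1:**
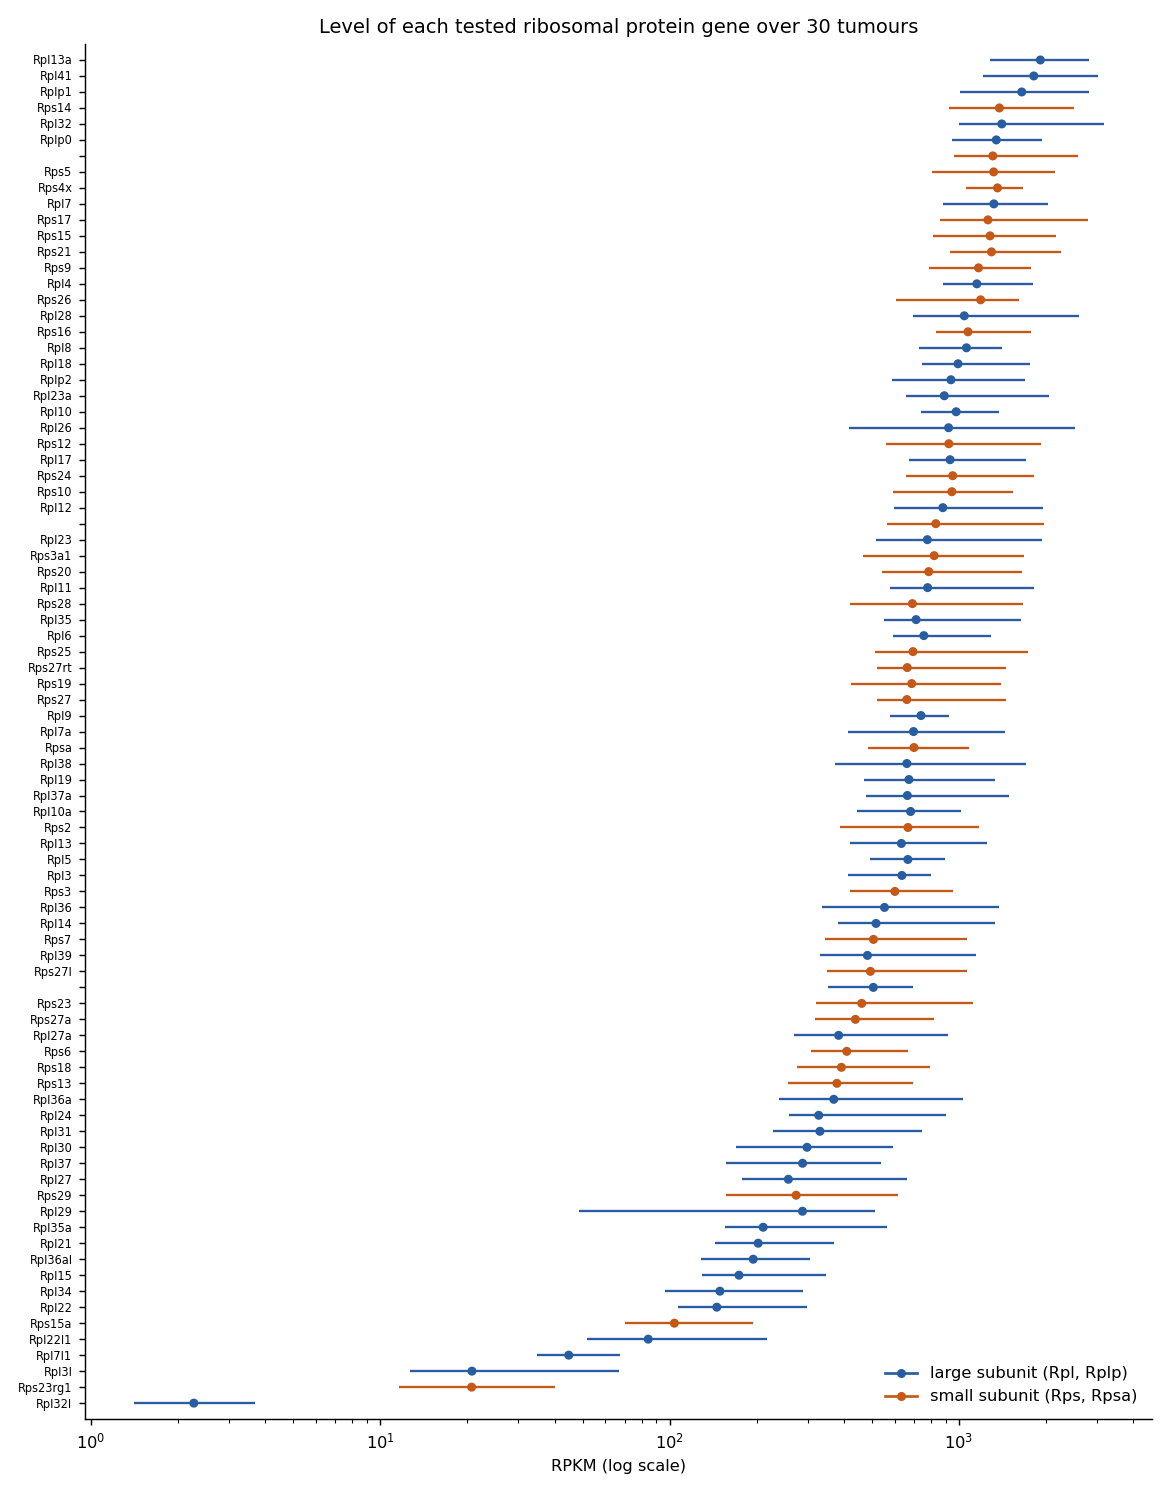
Level of each of the 85 tested members in RPKM (logarithmic horizontal axis), ordered by mean; points are medians and lines run from the lowest to the highest of 30 tumours, with large subunit genes in blue and small subunit genes in orange, and not every line is labelled. The 80 members averaging at least 100 RPKM form the upper band, Rpl29 has the longest line in it, and Rpl22l1, Rpl7l1, Rpl3l, Rps23rg1 and Rpl32l lie below.

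The most abundant large subunit mRNAs encoded Rpl13a, which also joins a complex that silences inflammatory mRNAs, and Rpl41, the smallest ribosomal protein. Rpl13a ran from 1279 RPKM in animal 4357 over a median of 1912 to 2823 in animal 4150. Rpl41 ran from 1208 in animal 4357 over a median of 1814 to 3026 in animal 3871. Their ranges overlapped almost fully, and the means of 1974 ± 460 and 1968 ± 493 RPKM (SD, n = 30) differed by far less than the spread between tumours. Rplp1, an acidic protein of the stalk that recruits elongation factors, averaged 1662 ± 445 RPKM, and its partners Rplp0 and Rplp2 averaged 1380 ± 259 and 1023 ± 298. Rpl32, of the large subunit, averaged 1435 ± 410 RPKM. Rps14, a small subunit protein needed for processing of its rRNA, was the most abundant small subunit mRNA at 1438 ± 357 RPKM. The median of the mean levels was 713 RPKM over the 47 large subunit members with at least 100 RPKM and 808 RPKM over the 33 small subunit ones. Over these 80 members the means spanned 18.6-fold, from 106 RPKM for Rps15a to Rpl13a.

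The transcripts that the rows stand for also differed in length, and the part of this in the span was not tested. The transcript matched to Rps15a is 5179 bases long, against a median of 830 bases over the members, and RPKM divides reads by length. Ribosomal protein genes also have many processed copies in the genome. A median of 55.9% of a member's 30-base words also occurred in annotated transcripts of other genes, with a range of 0 to 98.7%, and for 49 of 87 members compared the share was over 50%. How the authors' counting treated reads that match several places is not given in the sources used here, so levels of single members carry that uncertainty. Rps27 and Rps27rt shared 98.7% and 91.9% of their words with each other. Their ratio was 1.003 in every tumour, and the pair is best read as a single value of 727 ± 212 RPKM. Both entered as separate members in the share and counts given here.

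Several members have a symbol derived from that of another member, called the parent here. Whether each of them makes a ribosomal protein was not examined. Rpl22l1 averaged 92.2 ± 32.5 RPKM against 151 ± 42.4 for Rpl22. Rpl36al averaged 202 ± 41.8 RPKM against 403 ± 153 for Rpl36a, and Rps27l, a target of p53, averaged 502 ± 142 RPKM against the 727 of Rps27. Rpl7l1 stood at 45.8 ± 6.62 RPKM against 1317 ± 247 for Rpl7. Rpl3l, the form of striated muscle, stood at 24.6 ± 12.5 RPKM against 627 ± 102 for Rpl3. None of these 5 shared a 30-base word with its parent in the annotated transcripts. The retrogene Rps23rg1, which also shared 0 such words with Rps23, averaged 22.3 ± 6.82 RPKM and Rpl32l 2.34 ± 0.623. Below the limit of 1 RPKM were Rps4l, listed as a non-coding transcript, at 0.840 and Rpl39l, a form known from the testis, at 0.292. Rpl10l, which replaces X-linked Rpl10 during meiosis, was also below it, listed at 0 in every tumour. The parents Rps4x, Rpl39 and Rpl10 averaged 1348, 511 and 990 RPKM. Fau, which encodes a ribosomal protein fused to a ubiquitin-like sequence and falls outside the symbol rule, averaged 426 ± 99.7 RPKM.

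The libraries differed in ways that bear on these genes. Estimated from the spacing of low values, depth was 41.9 to 61.4 M reads in 16 libraries, called shallow here, and 134 to 232 M reads in 14, called deep. The classes come from the data and are not named in the labels. The short-transcript index, the mean log2 deviation of other genes under 800 bases minus that of genes over 3000 bases, had a median of -0.04 and a lowest value of -0.30. It reached 0.76 in animal 4150, whose library was also the shallowest, and the next value was 0.31 in animal 3871. All 6 epithelial markers (Krt7, Krt8, Krt18, Krt19, Epcam and Cdh1) were above 0 in every tumour, with sums of 1219 to 2768 RPKM.

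Animal 4150 had the highest value of all 30 tumours for 62 of the 85 tested members and lay above the median for 80. Its excess over the median tumour was 2.20-fold for the median of 26 members under 600 bases, 1.82-fold for 32 members of 600 to 1000 bases and 1.76-fold for 26 members over 1000 bases. The excess was largest over the short members and was present over the long ones. Animal 4042, with an index of 0.18, was the highest for 7 members. At the lower end, animal 4378 was lowest for 26 members, animal 4036 for 17 and animal 4357 for 14. Their indices were 0.05, -0.22 and -0.10, and that of animal 4036 was the lowest but for animal 4016. Against the index itself, 64 of the 85 members were higher in tumours with a higher index (limma on log2(RPKM + 1), adjusted p of at most 0.05), where 14.1% of all tested genes were higher and 15.4% lower, and none of the 85 was lower. Without animal 4150 the members called were 30, and the share over all tested genes is not given for that fit. The part of RNA quality or library preparation in the member levels was not tested.

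**Figure D2:**
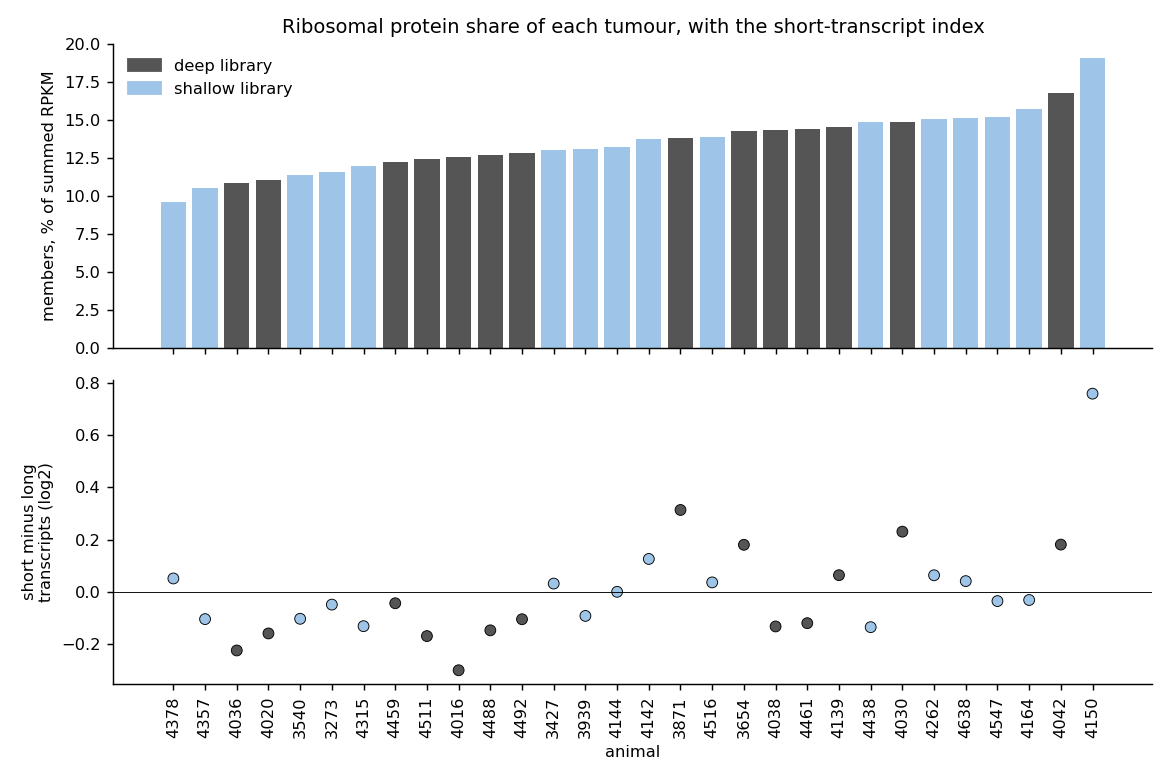
Upper panel, bars: percent of the summed RPKM held by the 88 members in each of 30 tumours, ordered by that share, with deep libraries in dark grey and shallow ones in light blue; lower panel, points: short-transcript index of the same tumours (log2). The share climbs from 9.61% to 19.1%, both depth classes are spread along the order, and animal 4150 is highest in both panels.

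Among the 80 members averaging at least 100 RPKM, the highest tumour exceeded the lowest by a median of 2.85-fold, with a range of 1.58-fold to 10.6-fold, and by 2.34-fold once animal 4150 was left out. The SD of log2(RPKM + 1) had a median of 0.35 over members and 0.27 over all tested genes. The least variable member was Rps4x, the X-linked form of a small subunit protein, with 1348 ± 175 RPKM and a log2 SD of 0.19. Rpl9, at 726 ± 98.1 RPKM, had an SD of 0.19 as well, and Rpl7l1 an SD of 0.20.

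Most members varied together. The Pearson correlation of a member with the mean of the other tested members over the 30 tumours had a median of 0.81, and it was at least 0.7 for 66 of the 85. The values share the same libraries and the same scaling, and are given as a description. The median was 0.80 within the 14 deep libraries, 0.87 within the 16 shallow ones and 0.79 without animal 4150. Highest were Rpl32 at 0.96, Rpl12 at 0.96 and Rpl6 at 0.95, named after their values were seen. Among members averaging at least 100 RPKM, large and small subunit genes had medians of 0.83 and 0.81, so the subunits did not stand apart there.

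**Figure D3:**
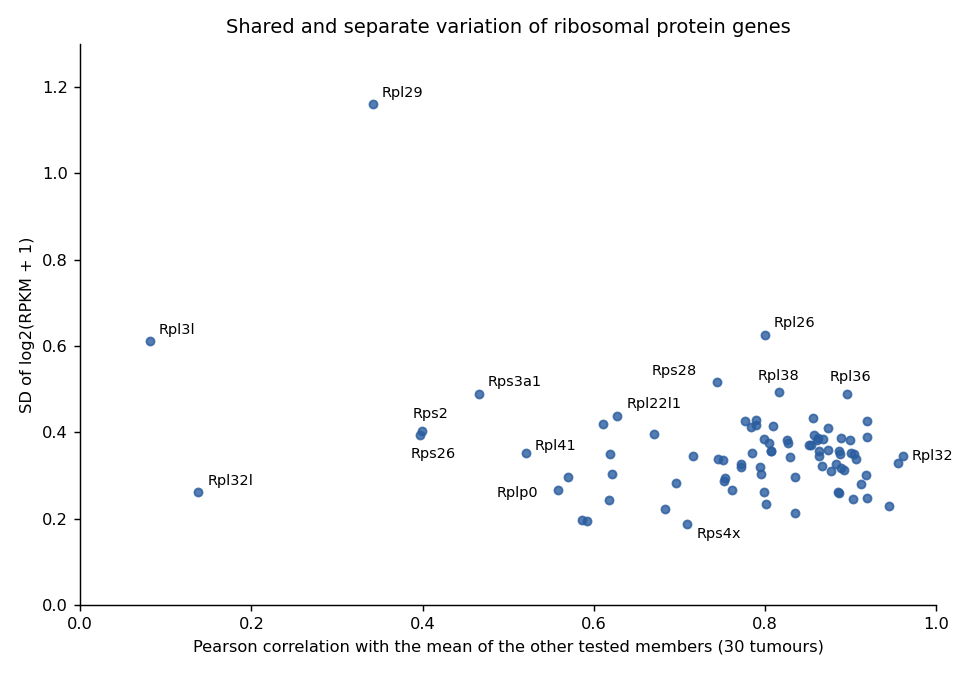
Each point is 1 of the 85 tested members; the horizontal axis gives its Pearson correlation with the mean of the other members over 30 tumours and the vertical axis its SD of log2(RPKM + 1). Most points lie between 0.7 and 1 with SDs near 0.35, while Rpl29 stands alone at an SD of 1.16 and Rpl3l and Rpl32l lie at the left.

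The 8 members with the largest SD included genes that followed the others and genes that did not. Rpl26, a protein next to the peptide exit tunnel that also binds p53 mRNA, ran from 418 RPKM in animal 4378 over a median of 921 to 2524 in animal 4150, an SD of 0.63, and had a correlation of 0.80 with the other members. Rps28, Rpl38 and Rpl36, with SDs of 0.52, 0.49 and 0.49, had correlations of 0.74, 0.82 and 0.90. Rpl38 is known for its effect on Hox mRNA translation in the mouse skeleton, and it ran from 373 RPKM in animal 4036 to 1709 in animal 4042. Rps3a1 had an SD of 0.49 and a lower correlation of 0.47, running from 468 RPKM in animal 3540 over 821 to 1682 in animal 4150. Rpl22l1 had an SD of 0.44 and a correlation of 0.63. The largest gap between neighbouring tumours was 0.24 to 0.68 log2 units in these 6 genes, narrower than the 1.08 of Rpl29.

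The lowest correlations belonged to Rpl3l (0.08), Rpl32l (0.14), Rpl29 (0.34), Rps26 (0.40), Rps2 (0.40), Rps3a1 (0.47), Rpl41 (0.52) and Rplp0 (0.56). Rps2, a small subunit protein at the mRNA entry, ran from 389 RPKM in animal 3939 over 666 to 1171 in animal 4150. Rps26, at the mRNA exit, ran from 605 RPKM in animal 4036 over 1188 to 1609 in animal 4150. Both are abundant, so low counts did not accompany their low correlation, unlike Rpl32l at 2.34 RPKM. Their correlations were 0.23 and 0.32 without animal 4150, and 0.28 and 0.33 within the deep libraries. Of the 30-base words of Rps2 and Rps26, 85.7% and 46.0% also occurred in transcripts of other genes, against a median of 55.9% over members. The part of these shared words in the low correlations was not tested.

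Rpl29 encodes a small basic protein of the large subunit that mice can live without, though null animals are small. Its levels fell into a lower and an upper range. In 11 tumours (animals 3273, 3540, 4144, 4511, 4488, 4461, 4378, 4547, 4438, 4038 and 4315, in rising order) Rpl29 was at 48.5, 49.3, 56.8, 61.2, 67.6, 68.8, 71.1, 82.5, 82.9, 84.8 and 87.6 RPKM. In the other 19 it started at 187 RPKM in animal 4150, followed by 218 in 4036, 238 in 4020, 283 in 4357, 293 in 3871, 293 in 4016 and 298 in 3427. It then rose over 299 in 3939, 308 in 4459, 336 in 4492, 339 in 3654, 356 in 4638 and 369 in 4516. The highest values were 374 in 4030, 404 in 4142, 445 in 4164, 451 in 4262, 451 in 4139 and 514 in 4042. No tumour lay between 87.6 and 187 RPKM, a gap of 1.08 log2 units, whereas the median member had a largest gap of 0.35 and the median tested gene of 0.23. Of all tested genes, 2.73% had a gap at least as wide and 1.21% an SD at least as large as the 1.16 of Rpl29. This comparison is a description, since Rpl29 was singled out beforehand for its range.

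The lower 11 tumours held 4 deep and 7 shallow libraries, and the medians of Rpl29 were 293 RPKM over the deep and 235 RPKM over the shallow libraries. Animal 4150, highest for 62 other members, had the lowest Rpl29 value of the upper range. Animals 4036, 4357 and 4020, low for many members, were also in the upper range, and animals 4547 and 4438, which lay above the median for 74 and 66 of the 85 members, were in the lower one. Other tumours ran with the rest of the members. The 7 tumours with the highest mean standardised member level (4150, 4042, 4030, 4164, 4638, 4139 and 4262) were all in the upper range, and 4378, 3273, 3540, 4315 and 4511, low in that mean, were in the lower one. The correlation of 0.34 with the other members became 0.41 without animal 4150 and 0.45 without animals 4036 and 4150. Rpl29 passed the test in none of the comparisons below. Its slopes on the ribosome biogenesis and proliferation scores, 0.32 ± 0.20 and 0.31 ± 0.20 (SE), were among the largest of the members and had adjusted p = 0.258 and adjusted p = 0.324 (limma).

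The gene lies on chromosome 9, as do most of the genes with the largest absolute correlations with it. Among non-members, Twf2, an actin-binding twinfilin 4 positions before Rpl29 in the order of tested genes, had the largest absolute correlation with it over the 30 tumours, r = 0.77 (Spearman's rho 0.76). Abhd14a, an alpha/beta hydrolase domain gene 2 positions after it, had r = 0.77 and rho 0.77. Acaa1b, a peroxisomal thiolase at position 141, had r = 0.73, the predicted gene Gm6548 on chromosome 17 had r = 0.70, and Cck, the cholecystokinin gene at position 163, had r = 0.69. Of the 20 genes with the largest absolute correlation, 15 were on chromosome 9, which holds 5.60% of the tested genes. The correlation was positive for 13 of these 15 and negative for 2, Exph5 and Hemk1.

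Twf2 and Abhd14a spanned a smaller range than Rpl29: Twf2 ran from 17.3 to 41.8 RPKM and Abhd14a from 13.97 to 28.3. Their correlations were 0.92 and 0.83 within the deep libraries and 0.68 and 0.81 within the shallow ones, and 0.89 and 0.77 once the 2 tumours with the most extreme Rpl29 values were left out. Since Rpl29 splits into 2 ranges, the correlations were also taken inside each. Within the upper 19 tumours the values were 0.77 and 0.59. Within the lower 11 they were -0.73 and -0.10, so the relation to both genes did not hold there. For Cck and Gm6548 the correlations within the upper 19 were 0.06 and 0.08, so their pooled values rested on the step between the ranges.

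Over the 30 nearest tested genes, 15 on each side, the median absolute correlation with Rpl29 was 0.32, against 0.16 over all tested genes. At least 0.5 was reached by 5 neighbours, Twf2, Alas1, Poc1a, Acy1 and Abhd14a, and by 0.764% of all tested genes. Within the upper 19 tumours the correlations of Alas1, Poc1a and Acy1 were 0.16, 0.31 and 0.34, and within the lower 11 they were -0.72, 0.10 and 0.21, so their pooled values too leaned on the step. Calculated the same way, the ratio of these medians was 2.05 for Rpl29, the highest of the members, followed by 1.96 for Rps15 and 1.84 for Rps27a. The neighbour median of Rpl29 itself was not the highest. Over the members it ran from 0.16 for Rpl18 to 0.55 for Rps15, and the ratio of Rpl29 rested also on its low median over all genes. For Rps15 that median was 0.28. Neighbouring genes share chromosome segments in a backcross, and animals carried different segments, but genotypes were not analysed here and their part was not tested. Rpl29 also has many copies: 78.4% of its 30-base words occurred in transcripts of 128 other genes, a share above the members' median of 55.9%. Whether strain differences in the sequence changed how its reads were placed was not tested.

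**Figure D4:**
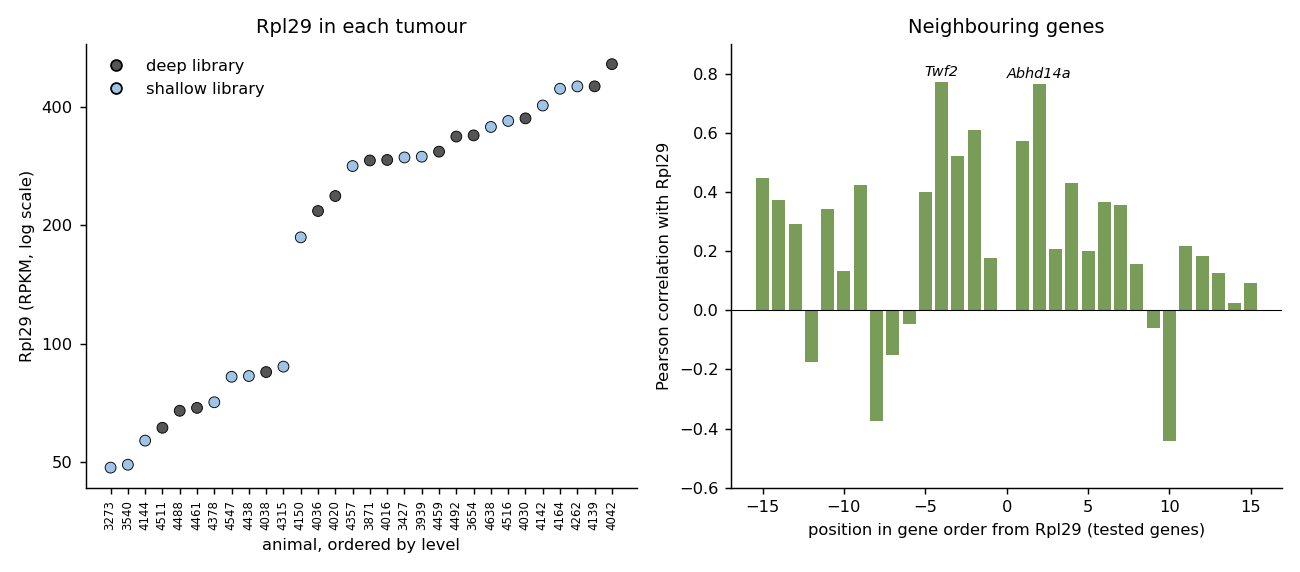
Left, points: Rpl29 in each of 30 tumours in RPKM (logarithmic axis), ordered by level, with deep libraries in dark grey and shallow ones in light blue. Right, bars: Pearson correlation of the 15 tested genes on each side of Rpl29 with its level, by position in gene order. The left panel shows 11 tumours at or below 87.6 RPKM and 19 at or above 187, and the right panel the highest bars at Twf2 (0.77) and Abhd14a (0.77).

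The remaining comparisons ask how member levels related to the make-up and growth of the tumours. For each list of genes a score was made per tumour and scaled to an SD of 1, and a slope is the difference in log2(RPKM + 1) per SD of that score. All comparisons use the same 30 tumours and the scores are related to each other, so they do not count as separate evidence. In bulk tissue, fewer cells of a type and less RNA per cell cannot be told apart. RPKM is also relative, so a library with much collagen or milk mRNA leaves a smaller share for every other gene.

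Ribosomal protein mRNAs were lower in tumours rich in stromal matrix. The matrix list held 21 genes of fibroblasts and their matrix, such as the collagen gene Col1a1, all above 0 in every tumour, with sums of 470 to 7838 RPKM. Against its score, 56 of 85 members were lower and 0 were higher (limma, adjusted p of at most 0.05), where 10.7% of all tested genes were lower and 10.1% higher. All 85 slopes were negative, with a median of -0.18, against -0.01 over all tested genes. Under median-ratio scaling 41 members were lower, and the called genes of the whole table moved from 1377 higher and 1457 lower to 1580 higher and 1057 lower.

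Genes of both subunits were among the members with the smallest adjusted p. Rps23, which helps to keep decoding accurate, had a slope of -0.24 ± 0.05 (SE) with adjusted p = 0.00039 (limma). It ran from 319 RPKM in animal 4020 over a median of 461 to 1118 in animal 4150. Rps18 and Rps6 had slopes of -0.22 and -0.17, and Rpl14 of the large subunit had -0.21. Rps6 is the protein that S6 kinase phosphorylates downstream of mTOR. Rpl14 ran from 382 RPKM in animal 4036, the tumour with the highest matrix score (3.14), to 1331 in animal 4150, whose score was -1.99.

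These 2 animals carried part of the count. Leaving out animal 4150 gave 20 lower members, leaving out animal 4036 gave 36, and leaving out both gave 8, with a median slope of -0.10 and 83 of 85 slopes still negative. Within the 16 shallow libraries, which include animal 4150, 37 members were lower, and within the 14 deep ones 0 were, with 9 at an unadjusted p under 0.05 and a median slope of -0.12. With the short-transcript index as a covariate 17 members were lower. The matrix score of animal 4150 and its short-transcript index are both extreme, and their parts in this result were not tested. With the proliferation score as a covariate 24 members were lower. Shares over all tested genes are not given for these fits, so a smaller count need not be particular to the members.

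Ribosomal protein mRNAs were higher in tumours with more mRNA for ribosome assembly factors. The biogenesis list held 33 nucleolar genes, such as Nop56, Fbl and Ncl, none of them a ribosomal protein, with sums of 893 to 1760 RPKM. Against its score, 66 of 85 members were higher and 0 lower (limma), where 13.9% of all tested genes were higher and 11.7% lower. The median slope was 0.17 over members and 0.00 over all tested genes, and 84 of 85 slopes were positive. The exception was Rpl3l at -0.10 ± 0.11 (adjusted p = 0.545).

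Rps15a had a slope of 0.24 ± 0.04 (SE) with adjusted p = 8.3e-05 (limma). It ran from 69.9 RPKM in animal 4378 over a median of 104 to 194 in animal 4150. The paralogue Rpl7l1, whose SD was small, had a slope of 0.15 ± 0.03. Rps16 and Rpl36al had slopes of 0.18 and 0.19. Rpl22l1, at 0.28 ± 0.06, had one of the steepest slopes of those called (adjusted p = 0.000967, limma), and is named after its value was seen.

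This count also moved with the treatment of the data. Leaving out animal 4150 gave 59, leaving out animal 4036 gave 47, and leaving out both gave 43. Within the deep libraries alone 9 members were higher and within the shallow ones 16, with median slopes of 0.15 and 0.20. With the short-transcript index as a covariate 39 were higher. Quantile normalization left 15, and the matrix score as a covariate left 6. Here too the shares over all tested genes are not given, so a smaller count need not be particular to the members.

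The cell cycle score called 7 members, a count that depended strongly on single libraries. The proliferation list held 35 genes, such as Mki67 and Top2a, with sums of 615 to 1552 RPKM. Of 85 members 7 were higher and 0 lower with its score (limma), a share near the background, where 9.48% of all tested genes were higher and 7.12% lower. The slopes were positive for 83 members, with a median of 0.11 against 0.00 over all tested genes. Those called included Rpl5, Rpl7l1, Rpl3 and Rpl4 of the large subunit and Rpsa and Rps15a of the small one. Rpl5, which binds 5S rRNA and can restrain Mdm2, had a slope of 0.13 ± 0.04 (SE) with adjusted p = 0.0172 (limma). It ran from 494 RPKM in animal 3273 over 666 to 897 in animal 4438.

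Leaving out animal 4150 gave 29 members, and the short-transcript index as a covariate gave 28. Both exceed the matrix counts of 20 and 17 in the same fits, so the order of these counts turned. The difference between the scores was not tested. Shares over all tested genes are not given for these fits, so the counts do not rank the scores. Leaving out animal 4036 gave 1, which was not among the 7 called with all tumours. Leaving out animal 4020 gave 3, animal 4378 gave 4 and animal 4144 gave 12. Quantile normalization gave 5, of which 2 were among the 7. Within either depth class alone the count was 0. An unadjusted p under 0.05 (limma) was reached by 7 and 9 members in the deep and shallow libraries. With the matrix score as a covariate the count was 0. Rpl5 had adjusted p = 0.0643 without animal 4036 (limma).

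**Figure D5:**
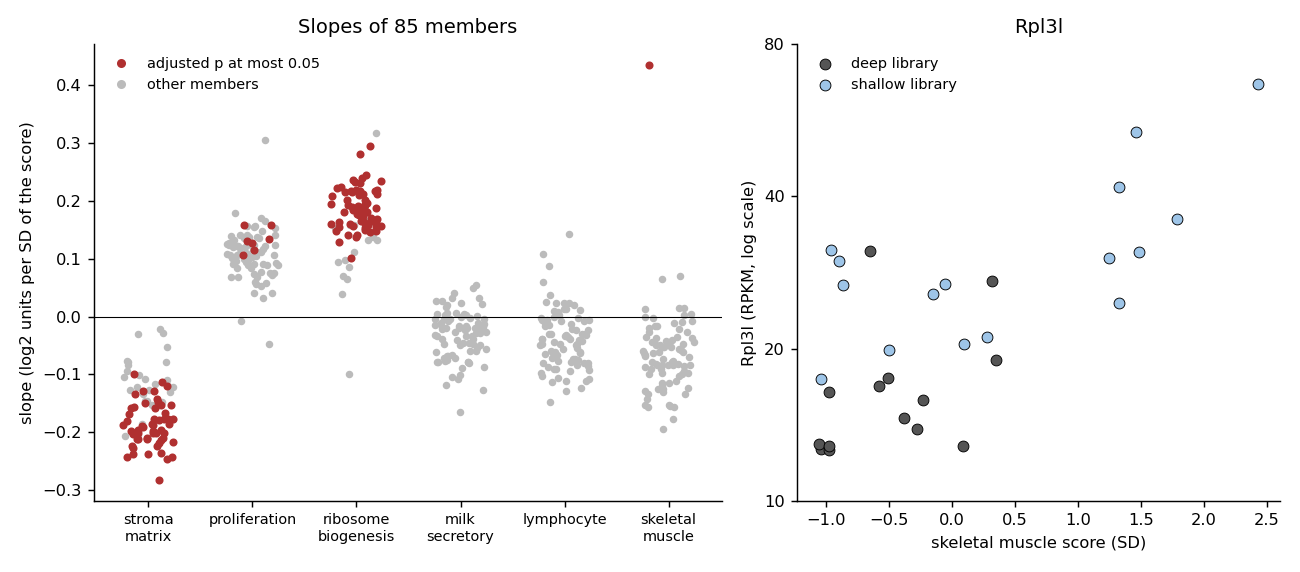
Left, points: slope of each of the 85 tested members (log2 units per SD of the score) for 6 scores, with members at an adjusted p of at most 0.05 in red; horizontal scatter within a column has no meaning. Right, points: Rpl3l in RPKM (logarithmic axis) against the skeletal muscle score in deep and shallow libraries. All 85 matrix slopes lie below 0, 84 biogenesis slopes lie above it, and Rpl3l is the single red point for skeletal muscle.

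Other genes of translation were called in the same directions. Of 21 tested genes outside the members whose mRNAs carry a TOP motif, 10 were lower with the matrix score, 15 higher with the biogenesis score and 8 higher with the proliferation score. Over all tested genes the shares were 10.7%, 13.9% and 9.48% in the same order. Without animal 4150 the counts were 10, 14 and 11, with no share over all tested genes given. With the short-transcript index 9 were higher and 1 lower, against 14.1% and 15.4% of all tested genes. Npm1, a nucleolar chaperone of ribosome assembly, had slopes of -0.31 ± 0.06 on the matrix score and 0.35 ± 0.05 on the biogenesis score. Naca, which guards nascent chains at the exit tunnel, had -0.21 ± 0.04 and 0.19 ± 0.04. The elongation factor gene Eef1a1, at 4797 ± 521 RPKM, passed neither test, with slopes of -0.06 ± 0.04 and 0.06 ± 0.04. Fau also passed neither, with a slope of -0.08 ± 0.06 on the matrix score.

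The mitochondrial ribosomal proteins, which serve a separate ribosome, were called in these directions too. Of 78 genes 40 were lower with the matrix score, 60 higher with the biogenesis score and 27 higher with the proliferation score. The median slopes were -0.10, 0.13 and 0.09, and the shares over all tested genes 10.7%, 13.9% and 9.48%. The proliferation share was above that of the members, and the difference was not tested. Of the 78, 47 were higher and 0 lower with the short-transcript index, against 14.1% and 15.4% of all tested genes. Without animal 4150 the 3 counts were 20, 59 and 37, and with the index as a covariate 16, 47 and 40. No shares over all tested genes are given for these refits. The part of library or RNA quality in the counts was not tested. Among 12 tested regulators of ribosome synthesis, Myc and the S6 kinase gene Rps6kb1 were lower with the matrix score, at -0.20 ± 0.06 and -0.12 ± 0.04. With the biogenesis score 1 of the 12, Myc, was higher, at 0.19 ± 0.06 (adjusted p = 0.0106, limma), and with the proliferation score 1, Eif4ebp1, a repressor of cap-dependent translation, at 0.17 ± 0.05. These counts of 1 of 12 are no larger a share than the 13.9% and 9.48% of all tested genes. The 2 of 12 lower with the matrix score stand beside 10.7% of all tested genes. Mtor passed none of the 3 tests.

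Milk and lymphocyte content gave no calls. The milk list of 9 genes ranged from 2483 to 53628 RPKM in sum, with Glycam1 at 0 in 1 tumour, and 0 of 85 members passed the test (limma), where 1.48% of all tested genes did; 3 members had an unadjusted p under 0.05. The median slope was -0.02 against -0.03 over all tested genes. Of the lymphocyte list of 16 genes, 11 entered the score, with sums of 20.8 to 196 RPKM over the list and Cd2 at 0 in 1 tumour and Blk in 5. Again 0 members passed (limma), against 1.54% of all tested genes, and 2 had an unadjusted p under 0.05.

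Skeletal muscle content separated 1 member. The muscle list of 16 genes ranged from 54.1 to 18764 RPKM in sum, with Myh4 at 0 in 3 tumours and Myh2 in 1. The muscle actin Acta1 ran from 0.551 RPKM in animal 4036 to 4653 in animal 3273. Rpl3l was higher with the score and was the only one of the 85 members called (limma), where 2.26% of all tested genes were higher and 0.162% lower. Its slope was 0.44 ± 0.08 (SE) with adjusted p = 0.000316 (limma). The parent gene Rpl3 was not called.

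Rpl3l ran from 12.6 RPKM in animal 4020 over a median of 20.7 to 66.6 in animal 3273, which also had the highest muscle score. The next values, 53.6 in animal 4144 and 41.7 in animal 4262, came from tumours with scores of 1.46 and 1.32. Part of the spread lay between depth classes. Rpl3l was lower by 0.82 ± 0.16 log2 units in the deep libraries (limma, adjusted p = 0.00339) and was the only member of 85 to differ, where 1.24% of all tested genes differed. Its medians were 15.2 RPKM over the 14 deep and 28.3 RPKM over the 16 shallow libraries. Muscle scores also differed, with medians of -0.55 and 0.19, so the classes and the muscle content cannot be fully told apart. With the class as a covariate the slope on muscle was 0.31 (adjusted p = 0.0173, limma). Within the shallow libraries it was 0.35 (adjusted p = 0.0315) and within the deep ones 0.17 (adjusted p = 0.846), where muscle scores reached only 0.35.

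The labels give the mean insert size of each library, the only technical value in them. Insert size was related to 0 of 85 members (limma), where 0.0367% of all tested genes were called, although 16 members had an unadjusted p under 0.05. Of the slopes 66 were negative, and the smallest adjusted p was 0.161 for Rpl35, at -0.19 ± 0.06 log2 units per SD. With the depth class as a covariate 8 members were lower with larger inserts.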

How the data were processed

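The authors deposited 1 table of RPKM values with 27902 transcripts and 30 animals. The RPKM unit is an inference: low values times transcript length fell on multiples of a library-specific step (69.1 to 84.8% within 0.12 of a whole read, 24% by chance); no count test was run. Per the submitters' processing notes, CASAVA 1.7.0 was used; build, annotation and aligner settings: not given in the sources used here. A RefSeq table (GRCm38.p6) named 26490 transcripts and GENCODE vM21 154; 1258 unnamed rows (1.94% of summed RPKM) and 692 small RNA rows were left out. The row with the highest mean was used per gene. Transcript lengths are those of matched annotated transcripts; the authors' lengths are not known.

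The 13613 genes that averaged 1 RPKM or more were fitted on a log2(RPKM + 1) scale, on which low genes change less, by two-sided tests of limma 3.58.1 (R 4.3.3; empirical Bayes with trend), Benjamini-Hochberg over all tested genes, threshold 0.05. A score is the mean standardised value of the listed genes, scaled to an SD of 1; a listed gene was set against the others of its list. Python 3.11.15, numpy 2.4.6, pandas 2.3.3 and matplotlib 3.10.9 were used for the rest. The fit on the matrix score was tested on simulated data in which genes varied independently, unlike the members. Slopes of 0.1, 0.25, 0.5 and 1 were recovered in 4, 74, 94 and 100% of cases, and 2.86% of the calls were false. The median slopes of the members given above were smaller than 0.25 in absolute size.

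Named genes were Rpl29; the 5 highest and 5 lowest means; the 8 largest and 3 smallest SDs; the 8 lowest correlations with other members; the 5 smallest adjusted p per direction and test, of which called ones are given; paralogues with their parents; Fau; and the 5 genes most like Rpl29. Values of a few genes taken by these rules are left out here. Members, lists and rules were chosen with earlier results of these data known. With 1 library per animal, errors include technical variation, and the number of animals limits precision. The short-transcript index, and leaving out animals 4036 and 4150 together, and refits of 2 further lists, were added after seeing the data. Other alternatives were the pseudocount, the filter, scaling, the row used per gene, depth class, covariates and leaving out each animal.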

Additional observations from a re-analysis of the deposited data

How the results depend on the processing

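Counts are members called of 85 (limma, adjusted p of at most 0.05). Shares over all tested genes are not given for these refits, so the counts do not rank the scores. For the matrix score, 56 members were lower as reported, 32 under quantile normalization, 0 in deep libraries alone, 37 in shallow libraries alone, 17 with the short-transcript index and 24 with the proliferation score as a covariate, 8 without animals 4036 and 4150, and 20 to 62 over the 30 fits leaving out 1 animal each. For the biogenesis score the 66 became 15 under quantile normalization, 9 in deep and 16 in shallow libraries, 39 with the index and 6 with the matrix score as a covariate, 43 without both animals, and 47 to 67 leaving out 1. For proliferation the 7 became 0 in deep libraries, 0 in shallow libraries, 0 with the matrix score, 28 with the index, 12 without both animals, and 1 to 29 leaving out 1, so its order against the matrix count turned without animal 4150 and with the index. The milk count of 0 became 3 (all lower) with the index and 1 without both animals, and under median-ratio scaling 46 of 85 milk slopes were positive, against 19 as reported. The muscle count of 1 became 0 in deep libraries, 2 in shallow ones, 4 with the index, and 1 to 2 leaving out 1. The lymphocyte count of 0 became 1 with the index, and the insert size count of 0 became 8 with depth class as a covariate. The depth class count stayed at 1 leaving out each animal. Fits to 1 depth class use fewer tumours; the cause of the other changes was not tested. Other pseudocounts, other filters and the mean over the rows of a gene kept every count within 1.5 times. No paired analysis was possible because all 30 tumours form 1 group. Depth could not be turned into counts, so no counting error is given for the weakest members.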
